A study of Mus musculus with 18 samples.

Results

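The data described here are the 6 arrays of wild-type mouse epidermis taken after tape stripping, 3 arrays at 24 h against 3 arrays at 6 h, out of 18 arrays in the whole series. The arrays were picked by their titles. Tape stripping pulls off the outer cornified layers with adhesive film, and it was done on the shaved back of female mice of a mixed genetic background. The wild-type animals (AhR+/+, here WT) were littermates of mice that lack the aryl hydrocarbon receptor in the germ line (AhR-/-, line B6.129-AhRtm1Bra/J, here KO), so that the KO change is a change in animals without the receptor in any tissue. RNA came from epidermal sheets, in which keratinocytes are the main cell type, and was read on Affymetrix gene arrays. The 3 unstressed WT arrays (0 h) and the 6 KO arrays at 6 h against 24 h are given where they place a WT value. The labels state no age. The comparison covers the 23521 rows of the deposited table that name 1 gene, which stand for 22180 genes. Values are on a log scale taken as log2 and had been centred on each row's median over all 18 arrays, so a value of 0.5 says that an array lies 0.5 log2 above the middle array for that gene and says nothing of how strongly the gene is expressed. For the same reason the tissue label could not be checked by the level of keratinocyte markers.

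Removal of the cornified layers sets off a repair programme in the living layers of the epidermis. Keratinocytes first switch on stress, early-response and inflammatory genes. Basal keratinocytes later enter the cell cycle, copy their DNA in S phase and divide, and their daughters move outward and differentiate to rebuild the barrier. The proliferative phase is driven by E2F factors, which act on replication genes. It is also driven by the MuvB complex with B-MYB and FOXM1, which act on genes of G2 and mitosis.

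The 6 arrays differed little from each other, and not mainly by time. The root mean square difference over all tested rows was 0.181 to 0.231 log2 between arrays of 6 h, 0.191 to 0.223 between arrays of 24 h and 0.193 to 0.258 between the times. WT 6 h replicate 1 stood closer to WT 24 h replicates 2 and 3 (0.193 and 0.194) than to the other arrays of 6 h (0.231 and 0.227). The labels carry a 4-digit number for each sample, whose meaning is not given. It is at or above 3000 in WT 6 h replicate 1 and in all 3 arrays of 24 h, and below 3000 in WT 6 h replicates 2 and 3. Without WT 6 h replicate 1 the number and the time cannot be told apart. Values with the number class as a block are given beside some of the results they move. So are values within the higher number class, which set WT 6 h replicate 1 alone against the 3 arrays of 24 h. Among genes given below without such a value, some differences shrank within that class. Nr4a3 was at -0.03 there, Nop56 at 0.09, Fbxo32 at -0.11, Btc at -0.26 and Mgst2 at 0.25. Others widened there, such as Melk at 0.60 and H2ac10 at 1.12. The row for Ahr, the gene missing in KO, lay between -0.77 and -0.59 in the 6 KO arrays of 6 h and 24 h and between -0.01 and 0.64 in the 6 WT arrays, with no overlap, and may read parts of the gene outside the deletion.

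The comparison of 24 h with 6 h asks how the epidermis of normal mice moved from the early to the later phase of repair. Of the 43 gene lists read, those of DNA replication and of G2 and mitosis had the highest median differences (0.30 and 0.20 log2), and those of epidermal T cells and of migration and matrix the lowest (-0.23 and -0.21). Lists of protein folding in the endoplasmic reticulum, the basal layer and early-response signalling also had medians below 0. No single row passed the test. Limma's moderated test over all 18 arrays with Benjamini-Hochberg adjustment called 0 of 23521 rows (0.0%) at an adjusted p under 0.05, and the smallest adjusted p was 0.117. At an unadjusted p under 0.05 there were 1833 rows (7.79%), of which 775 (3.29%) lay higher at 24 h and 1058 (4.5%) lower. The arrays of the times did not overlap in 1518 rows that lay higher (6.45%) and 1505 that lay lower (6.4%). The median absolute difference was 0.07 log2, the median SE was 0.0968, and 15 rows reached 1 log2. When WT 6 h replicate 1 was left out, 19 rows passed, 8 higher and 11 lower. The genes described below are therefore given by their values and their place against these backgrounds.

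The smallest p belonged to Pclaf, whose protein binds the sliding clamp PCNA during DNA replication. Its centred values were -0.47, -0.22 and -0.25 in the arrays of 6 h and 0.36, 0.63 and 0.52 in those of 24 h. All arrays of 24 h lay above all arrays of 6 h, and also above the 0 h arrays at 0.22, 0.05 and -0.10. The difference of 0.81 log2 (SE 0.117, n = 3 per group, adjusted p = 0.117) corresponds to 1.76-fold, and it was 0.97 within the higher number class. Tk1, the thymidine kinase that salvages thymidine for DNA synthesis, had -0.10, -0.26 and -0.39 at 6 h against 0.45, 0.49 and 0.77 at 24 h, a difference of 0.82 (SE 0.145, adjusted p = 0.185). Rfc5, a subunit of the loader that places PCNA on DNA, had 0.01, -0.22 and -0.21 at 6 h against 0.20, 0.32 and 0.47 at 24 h. Its difference of 0.47 (SE 0.0907, adjusted p = 0.19) was smaller than that of Tk1, while the arrays were again apart. Tm7sf2, a sterol reductase of the cholesterol pathway, stood outside the cell cycle, with values of 0.00, -0.13 and -0.21 at 6 h against 0.41, 0.28 and 0.19 at 24 h. So did Grp, which encodes gastrin-releasing peptide, and the homeobox gene Hoxd13, which differed by 0.44 and 0.34.

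**Figure D1:**
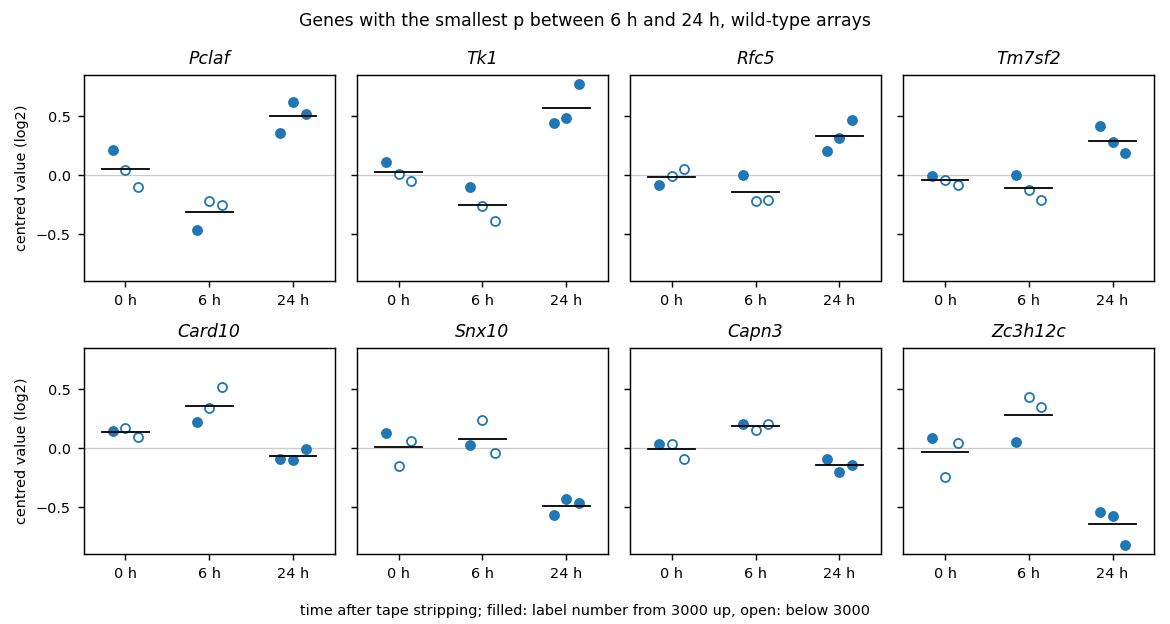
Centred log2 values (vertical axis) of 8 genes in the 9 wild-type arrays at 0 h, 6 h and 24 h (horizontal axis); points are arrays, bars are group means, filled points carry a label number from 3000 up and open points one below 3000. In each of the 8 genes the 3 arrays of 24 h lie on 1 side of the 3 arrays of 6 h, which a choice by the smallest p favours. Pclaf differs by 0.81 and Zc3h12c by -0.92, and none of the 8 passed the test.

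Among the genes that lay lower at 24 h the smallest p belonged to Card10, an adaptor that links surface receptors to NF-kappaB. It had 0.22, 0.34 and 0.52 at 6 h against -0.09, -0.10 and -0.01 at 24 h, a difference of -0.43 (SE 0.067, adjusted p = 0.171). The 0 h arrays lay in between at 0.15, 0.17 and 0.10. Zc3h12c, of a family of RNases that degrade inflammatory mRNAs, had 0.06, 0.43 and 0.35 at 6 h against -0.54, -0.58 and -0.82 at 24 h. Its difference of -0.92 (SE 0.166, adjusted p = 0.185) and that of Aadacl2fm1 at -0.97 were wider than that of Card10. Snx10, a sorting nexin of endosomes, had 0.03, 0.24 and -0.04 at 6 h against -0.56, -0.43 and -0.47 at 24 h. The protease Capn3 had tight values of 0.21, 0.15 and 0.21 at 6 h against -0.09, -0.20 and -0.14 at 24 h. Wnt16, a WNT ligand, had -0.08, 0.26 and -0.01 against -0.36, -0.50 and -0.39. Erap1, which trims peptides for MHC class I in the endoplasmic reticulum, differed by -0.44, and the drug-metabolising cytochrome Cyp3a13 by -0.72. The other genes with a small p in this direction, Asb13, Kank2, Phactr2, Trim56, Antxr1, Prss23 and Med12, differed by -0.56 to -0.38, each with arrays of the times apart and with adjusted p of 0.19 to 0.268. A choice by the smallest p favours arrays that lie apart.

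**Figure D2:**
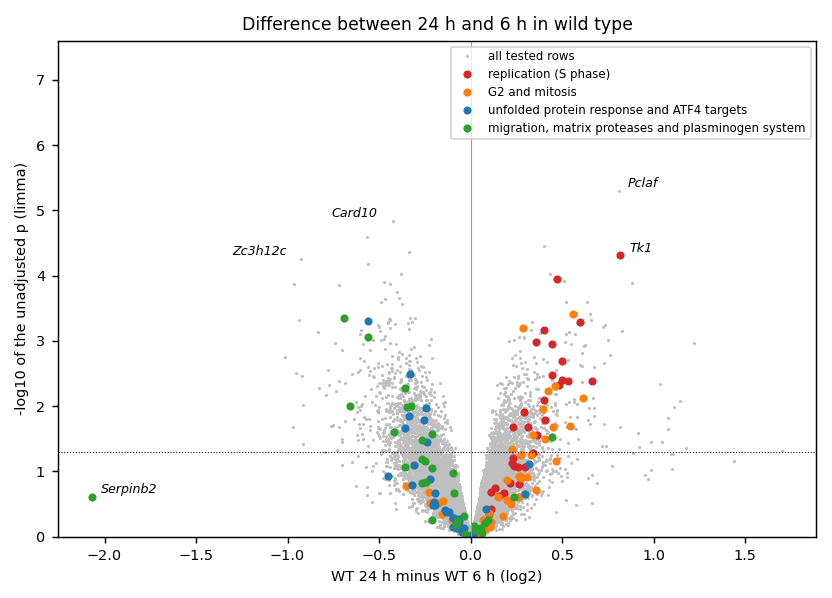
Difference between 24 h and 6 h in wild type (horizontal axis, log2) against -log10 of the unadjusted limma p (vertical axis) for the 23521 tested rows, with members of 4 gene lists coloured and the dotted line at the unadjusted threshold. All 35 replication genes lie right of 0 and 29 of the 33 genes of the unfolded protein list lie left of it; Serpinb2 at -2.07 has a large p.

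Replication genes lay higher at 24 h as a group. All 35 measured members of the S phase list had a difference above 0, with a median of 0.30 against 0.00 over all rows. The unadjusted p was under 0.05 in 18 of the 35, all higher, and the arrays of the times were apart in 19. None passed the adjusted test. The mean of the 35 genes was -0.22, -0.19 and -0.24 in the 3 arrays of 6 h, 0.07, 0.08 and 0.11 in those of 0 h, and -0.01, 0.08 and 0.25 in those of 24 h. The 6 h arrays thus lay below both other times and close to each other, whichever number class they carried, while the arrays of 24 h lay below, inside and above the range at 0 h. The median was 0.29 within the higher number class, and 0.22 to 0.40 when each array was left out.

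All 6 MCM subunits of the helicase that unwinds DNA at the fork had a difference above 0; they were singled out after their values were seen. Mcm2 had -0.43, -0.43 and -0.56 at 6 h against 0.13, -0.12 and 0.08 at 24 h, a difference of 0.50. Mcm5 had -0.30, -0.80 and -0.59 at 6 h against -0.11, -0.17 and 0.58 at 24 h, and differed by 0.66. Mcm3, Mcm6, Mcm7 and Mcm4 differed by 0.50, 0.45, 0.40 and 0.34, and Mcm4 alone among the MCM genes had overlapping arrays. Gins2, of the GINS complex that joins this helicase, differed by 0.60 (SE 0.135, adjusted p = 0.297). It had -0.26, -0.26 and -0.47 at 6 h against 0.46, -0.04 and 0.39 at 24 h. Clspn, the checkpoint adaptor claspin that travels with the fork, had -0.50, -0.25 and -0.28 at 6 h against 0.00, 0.09 and 0.10 at 24 h, a difference of 0.40. At 0 h it was at 0.04, 0.24 and 0.20, so that the 24 h arrays lay within the range of unstressed skin or below it. Members near 0 were also present: Pola1, the catalytic subunit of the polymerase that lays primers, differed by 0.04 and Gins3 by 0.01.

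Genes of chromosome segregation differed less evenly. In the list of G2 and mitosis 36 of 44 measured genes had a difference above 0, the median was 0.20, and 11 had an unadjusted p under 0.05, all higher. None passed. The list mean was -0.31, 0.11 and 0.12 at 6 h against 0.06, 0.29 and 0.11 at 24 h, so replicate 1 of 6 h lay apart from the other arrays of its time. The arrays of 0 h were at 0.30, -0.31 and 0.04, a range that held all WT arrays of 6 h and 24 h. Without that array the median was 0.06, without WT 24 h replicate 2 it was 0.10, and within the higher number class it was 0.46. Mki67, the usual marker of cycling cells, differed by 0.04, with -0.86, 0.24 and 0.62 at 6 h against 0.25, -0.09 and -0.04 at 24 h. Top2a, the topoisomerase that untangles sister chromatids, differed by 0.08, with a like spread at 6 h. Birc5 (survivin), of the chromosomal passenger complex, had 0.00, -0.15 and -0.34 at 6 h against 0.39, 0.46 and 0.34 at 24 h. Its difference was 0.56 (SE 0.123, adjusted p = 0.297), and 0.64 without WT 6 h replicate 1. Cdca8, of the same complex, differed by 0.42, and the kinase gene Melk by 0.46.

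The centromere and kinetochore genes among the leading genes had arrays that did not overlap, which a choice by the smallest p favours. In the whole mitotic list the arrays were apart in 12 of 44 genes that lay higher and 1 that lay lower. Over all rows the shares were 6.45% and 6.4%. Cenpa, the histone H3 variant that marks centromeres, had 0.00, 0.00 and 0.02 at 6 h against 0.21, 0.44 and 0.23 at 24 h, a difference of 0.29 (SE 0.0665, adjusted p = 0.304). Cenpn, which binds that nucleosome, had -0.32, -0.38 and -0.25 at 6 h against 0.26, 0.29 and 0.48 at 24 h and differed by 0.66. Cenpm, of the same inner kinetochore network, differed by 0.64. Spc24, which anchors the NDC80 complex that holds microtubules, had -0.36, 0.03 and 0.04 at 6 h against 0.48, 0.42 and 0.34 at 24 h. Pmf1, of the MIS12 complex, differed by 0.72 over all arrays and by 0.31 within the higher number class, where its 6 h array was at 0.09. The core histone genes H2ac10 and H2bc18 differed by 0.88 and 0.73. Histone genes of 1 family are near-identical, so which copy these rows read is uncertain.

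Promoters of leading replication and mitotic genes are shown because these lists had the highest medians. The sequences run 5′ to 3′ on the gene's strand over 300 bases that end shortly after the start, from RefSeq on GRCm38.p6. In the promoters of Pclaf (chr9:65890073-65890372, plus strand) and Clspn (chr4:126556730-126557029, plus strand) capitals mark an E2F-type match, on either strand, for which the letters searched were TTTCGCG, the variant TTTGGCG, the variant TTTCCCG and the variant TTTGCGC. In that of Cenpa (chr5:30666636-30666935, plus strand) they mark the element TTTGAA, known as CHR in mitotic genes.
Pclaf: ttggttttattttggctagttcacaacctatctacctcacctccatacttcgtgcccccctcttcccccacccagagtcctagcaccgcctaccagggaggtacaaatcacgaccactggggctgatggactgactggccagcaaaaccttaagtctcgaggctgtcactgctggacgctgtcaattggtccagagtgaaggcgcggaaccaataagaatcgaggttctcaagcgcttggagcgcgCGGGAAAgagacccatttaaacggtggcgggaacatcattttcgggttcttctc
Clspn: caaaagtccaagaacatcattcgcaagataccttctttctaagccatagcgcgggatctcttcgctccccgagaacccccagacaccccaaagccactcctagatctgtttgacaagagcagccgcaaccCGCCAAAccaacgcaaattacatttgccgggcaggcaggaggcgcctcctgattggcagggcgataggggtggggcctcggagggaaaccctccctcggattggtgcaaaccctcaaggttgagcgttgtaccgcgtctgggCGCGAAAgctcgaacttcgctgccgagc
Cenpa: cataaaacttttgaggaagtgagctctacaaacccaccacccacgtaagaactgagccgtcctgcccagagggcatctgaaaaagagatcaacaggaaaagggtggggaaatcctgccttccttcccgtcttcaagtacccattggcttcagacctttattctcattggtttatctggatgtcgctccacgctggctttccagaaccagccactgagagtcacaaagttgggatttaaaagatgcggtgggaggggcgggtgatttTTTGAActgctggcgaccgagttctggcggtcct
The table held 36 promoters for 31 of the 35 replication genes, and 17 of these promoters (47.2%) held an E2F-type match, against 7.02% of all 32851 promoters of the same length. The CHR letters were in 31 of 39 promoters of the mitotic list (79.5%) and in 17.9% of all promoters. CCAAT, on either strand, was in 61.1% of the replication promoters, 74.4% of the mitotic ones and 37.4% of all. These shares describe the lists, whose genes are textbook targets of these factors, and a match is not a bound site.

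**Figure D3:**
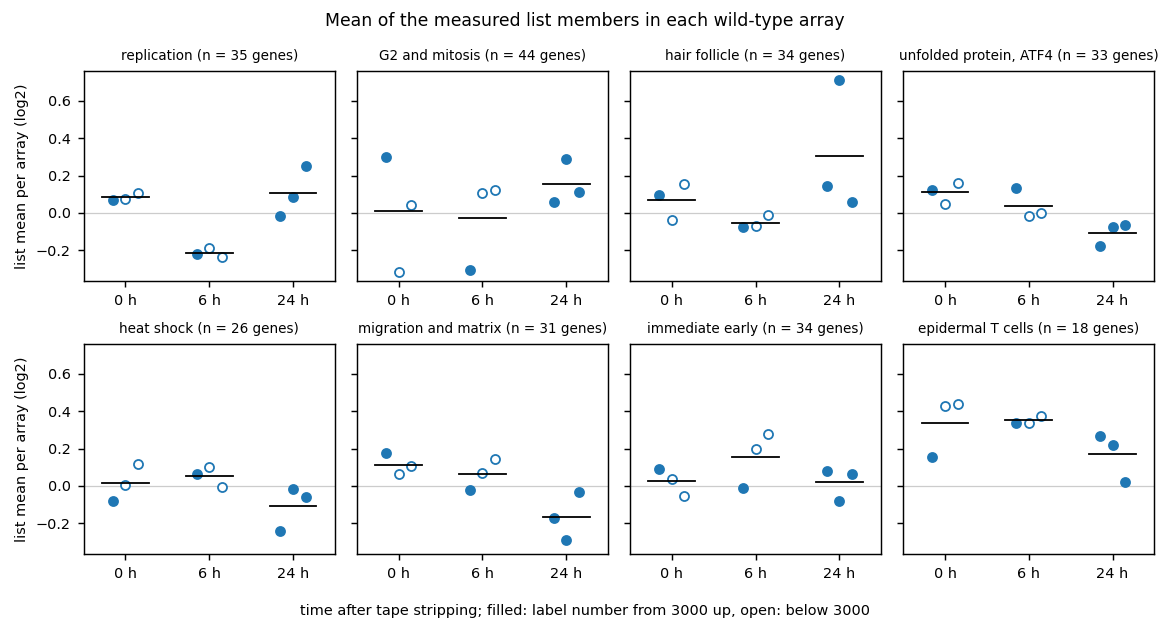
Mean centred log2 value (vertical axis) of the measured members of 8 gene lists in each wild-type array at 0 h, 6 h and 24 h (horizontal axis); points are arrays, bars are group means, filled points carry a label number from 3000 up. Replication genes sit at -0.24 to -0.19 in the arrays of 6 h and at -0.01 or higher elsewhere, while the hair follicle mean at 24 h rests on 1 array at 0.71. The migration and matrix mean of WT 24 h replicate 2 leans on the outlying Serpinb2 value of that array.

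Protein folding genes lay lower at 24 h. The list of the unfolded protein response and ATF4 targets, which are switched on when unfolded proteins gather in the endoplasmic reticulum or amino acids run short, had a difference below 0 in 29 of 33 measured genes and a median of -0.14. Of the 33, 7 had an unadjusted p under 0.05, all lower, and 0 passed. The list mean was 0.13, -0.02 and 0.00 at 6 h against -0.18, -0.08 and -0.07 at 24 h, with 0.12, 0.05 and 0.16 at 0 h. All 3 arrays of 24 h lay below all WT arrays of the other times. Hsp90b1 (GRP94), a chaperone of the endoplasmic reticulum, had -0.17, 0.19 and 0.09 at 6 h against -0.64, -0.32 and -0.61 at 24 h, a difference of -0.56 (SE 0.126, adjusted p = 0.297). Calr (calreticulin), which folds glycoproteins, had 0.27, -0.06 and 0.19 against -0.32, -0.14 and -0.15. Trib3, a target of ATF4, and Dnajc3, a co-chaperone, differed by -0.24 and -0.33, and the arrays of Dnajc3 overlapped. Hspa5 (BiP), the main chaperone of this compartment, differed by -0.14 with overlapping arrays. The list median was -0.27 within the higher number class and ran from -0.22 to -0.10 when each array was left out, lowest without WT 6 h replicate 2.

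The promoter of Hsp90b1 (chr10:86705395-86705694, minus strand) is shown for the stress element ERSE, which is CCAAT, then 9 bases, then CCACG. Capitals mark each match on either strand.
Hsp90b1: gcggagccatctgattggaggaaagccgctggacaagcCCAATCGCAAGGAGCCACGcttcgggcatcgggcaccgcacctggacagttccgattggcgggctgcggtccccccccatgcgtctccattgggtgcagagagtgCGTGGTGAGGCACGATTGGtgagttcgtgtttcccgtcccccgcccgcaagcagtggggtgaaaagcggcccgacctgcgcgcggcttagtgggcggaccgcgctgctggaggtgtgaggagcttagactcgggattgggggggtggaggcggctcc
The element was in 7 of 32 promoters of the unfolded protein list (21.9%) and in 0.119% of all promoters. It was searched after the values of this list had been seen. The share describes the list and not the change from 6 h to 24 h, and a match is not a bound site.

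Cytosolic chaperones and nucleolar genes pointed the same way with smaller medians. Among 26 heat shock and chaperone genes 20 lay lower, the median was -0.12 (-0.08 without WT 24 h replicate 1), and 6 had an unadjusted p under 0.05, all lower. Hsph1 (HSP110), a partner of HSP70, had 0.28, 0.59 and 0.42 at 6 h against -0.71, 0.12 and -0.47 at 24 h, a difference of -0.78 (SE 0.218, adjusted p = 0.441). WT 24 h replicate 2 was the highest array of its time here and also in Chordc1, a cofactor of HSP90. Hsp90aa1, the inducible HSP90, differed by -0.45 over all arrays, with -0.39, 0.28 and 0.02 at 6 h, so that replicate 1 of 6 h lay near the 24 h arrays at -0.42, -0.54 and -0.46. Among 43 genes of ribosome biogenesis 29 lay lower and the median was -0.08. That median was -0.03 without WT 6 h replicate 1 and likewise without WT 24 h replicate 1, -0.22 within the higher number class and -0.18 with the number class as a block. Noc3l, of pre-ribosome assembly, had 0.05, 0.13 and 0.00 at 6 h against -0.60, -0.28 and -0.44 at 24 h, a difference of -0.50 (SE 0.149, adjusted p = 0.45). Nop14 and Gnl3 differed by -0.40 and -0.51. Nop56 went the other way by 0.53 in its most variable row, and its other rows gave 0.16 and 0.68.

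Adhesion and migration genes of the basal keratinocyte lay lower at 24 h. In the list of migration, matrix proteases and the plasminogen system 23 of 31 measured genes had a difference below 0, the median was -0.21, and 9 had an unadjusted p under 0.05 in this direction against 1 in the other. The median was -0.12 without WT 24 h replicate 1, and -0.15 within the higher number class. Itga2, the collagen-binding integrin alpha 2 that keratinocytes use to crawl, had 0.01, 0.39 and 0.11 at 6 h against -0.58, -0.41 and -0.57 at 24 h, a difference of -0.69 (SE 0.153, adjusted p = 0.297). Lama3 and Lamb3, chains of the laminin that basal cells lay down beneath them, differed by -0.56 and -0.36. Lama3 had -0.11, 0.30 and 0.48 at 6 h against -0.46, -0.35 and -0.19 at 24 h. Its difference was -0.23 within the higher number class and -0.72 without WT 6 h replicate 1, where it passed (adjusted p = 0.0463). Fermt1 (kindlin-1), which activates integrins, differed by -0.33. The matrix protease Mmp9 had 0.01, 0.35 and 0.80 at 6 h against -0.01, -0.41 and -0.40 at 24 h. Fn1, fibronectin, was the member that lay higher at an unadjusted p under 0.05, by 0.44 with overlapping arrays. The list mean was -0.02, 0.07 and 0.14 at 6 h against -0.17, -0.29 and -0.03 at 24 h, with 0.18, 0.06 and 0.10 at 0 h. No array of 6 h thus lay above the range at 0 h, and all 3 arrays of 24 h lay below the WT arrays of the other times. Serpinb2, an inhibitor of urokinase chosen after its values were seen, had the widest difference of the list at -2.07, and WT 24 h replicate 2 alone carried it: that array was at -6.40 and the other arrays of 24 h at 0.00 and 0.02. The list mean of -0.29 in WT 24 h replicate 2 includes this value and leans on it.

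The list of the basal layer shares its laminin, integrin and Col17a1 genes with the one above. In it 15 of 18 measured genes lay lower and the median was -0.15, which became -0.07 within the higher number class. Dst and Col17a1, components of the hemidesmosome, differed by -0.26 and -0.21. Krt14, the keratin of basal cells, differed by -0.06, and Trp63, their master transcription factor, by -0.04, both with overlapping arrays. Genes of tight junctions and desmosomes had a median of -0.12, with 27 of 32 below 0 but 1 in each direction at an unadjusted p under 0.05. That median was 0.01 within the higher number class and -0.07 without WT 6 h replicate 3. Marveld3, a tight junction protein, had -0.08, 0.25 and 0.40 at 6 h against -0.18, -0.12 and 0.06 at 24 h, and Dsg4, a desmoglein of outer layers and hair, differed by 0.28.

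Early-response genes lay lower at 24 h than in WT 6 h replicates 2 and 3 but not than in replicate 1. Of 34 immediate early genes 28 had a difference below 0, the median was -0.13, and 7 had an unadjusted p under 0.05, all lower. The list mean was -0.01, 0.20 and 0.28 at 6 h against 0.08, -0.08 and 0.06 at 24 h. Within the higher number class the median was 0.02, and it was -0.20 without WT 6 h replicate 1, -0.08 without replicate 2 and -0.06 without replicate 3. Atf3, a stress-induced factor, had 0.01, 0.40 and 0.43 at 6 h against 0.04, -0.08 and -0.03 at 24 h. Btg2, an anti-proliferative gene, had 0.05, 0.41 and 0.44 against 0.03, -0.03 and -0.23. Dusp5, a phosphatase of ERK, differed by -0.40 and Nr4a3, an orphan nuclear receptor, by -0.75, both with overlapping arrays. Among ligands of the EGF receptor, Ereg (epiregulin) showed the same layout with -0.06, 1.06 and 0.80 at 6 h against 0.06, -0.06 and -0.07 at 24 h, and its difference of -0.62 became 0.04 within the higher number class. Btc (betacellulin) differed by -0.70 and Egfr itself by -0.32, and Egfr was at -0.14 within the higher number class. The 17 measured EGFR ligands and ERBB receptors had a median of -0.12, which was 0.02 within that class. Hbegf lay higher at 24 h by 0.36 (SE 0.15, adjusted p = 0.601), with -0.03, -0.01 and 0.01 at 6 h against 0.27, 0.41 and 0.35 at 24 h, and within the higher class it kept that side.

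Cytokines and chemokines had no common direction, with 20 of 45 measured genes above 0 and a median of -0.02. The 4 genes with an unadjusted p under 0.05 (8.89%) all lay lower. Over all rows the share was 7.79% in both directions and 4.5% lower. Il33, an alarmin stored in keratinocyte nuclei, had 0.42, 0.16 and 0.05 at 6 h against -0.73, -0.05 and -0.22 at 24 h, a difference of -0.54 (SE 0.167, adjusted p = 0.46). Cxcl9, a chemokine induced by interferon gamma, had -0.14, 0.57 and 0.06 against -0.60, -0.51 and -0.14. Il1b had -0.23, -0.62 and -0.40 against -0.67, -2.40 and -0.94, so its difference of -0.92 leaned on replicate 2. Cxcl14, a chemokine made by resting epidermis, differed by -0.44 with overlapping arrays. The wound keratins spread widely within each time. Krt6b differed by 1.70, with -1.40, -1.24 and -0.01 at 6 h against -0.94, 0.87 and 2.53 at 24 h. Krt6a differed by 1.44, with -0.18, -2.69 and -2.46 against -1.54, -0.09 and 0.63. Both overlapped between the times, and the difference in Krt6a was -0.15 within the higher number class. The median of the 26 wound keratin, alarmin and antimicrobial genes was 0.01.

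Differentiation genes had medians close to that of all rows. The list of cornified envelope genes had a median of -0.04 over 54 measured genes, with 2 higher and 1 lower at an unadjusted p under 0.05. Casp14, the caspase of the cornified layer that helps break down filaggrin, had -0.02, -0.01 and 0.00 at 6 h against 0.40, 0.17 and 0.42 at 24 h. Flg and Lor, which encode filaggrin and loricrin, differed by 0.26 and -0.30 with overlapping arrays. Krt1 and Krt10, the keratins of the suprabasal layers, differed by -0.04 and -0.02. Among barrier lipid genes the median was -0.08 (-0.03 without WT 24 h replicate 1). Cers4, a ceramide synthase, had 0.06, -0.10 and -0.04 at 6 h against 0.42, 0.75 and 0.55 at 24 h, a difference of 0.60 (SE 0.164, adjusted p = 0.431), and Acer1, a ceramidase, differed by 0.28. The lipase Lipn and the lipoxygenase Aloxe3 lay lower by 0.76 and 0.27. Cholesterol synthesis genes had a median of 0.11, and 14 of 19 lay higher. The median ran from 0.05 without WT 24 h replicate 2 to 0.19 without WT 24 h replicate 1. Tm7sf2 was the member with an unadjusted p under 0.05, and Fdps, which makes farnesyl diphosphate, differed by 0.21. Of the epidermal proteases and inhibitors, Klk5, the kallikrein that starts shedding of corneocytes, lay higher by 0.33 and its inhibitor Spink5 lower by 0.41. The Spink5 arrays overlapped, since WT 6 h replicate 1 was at -0.40. Stfa3, a stefin, differed by 1.08 with overlapping arrays, and stefin genes are close copies that this row may not tell apart.

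Detoxification and receptor target genes gave a few separate differences. Mgst2, a membrane glutathione transferase, had 0.11, -0.20 and -0.43 at 6 h against 0.24, 0.29 and 0.55 at 24 h, a difference of 0.54 (SE 0.126, adjusted p = 0.306). Aldh3a1, an aldehyde dehydrogenase and a target of the aryl hydrocarbon receptor, had 0.05, -0.39 and -0.10 against 0.71, 0.37 and 0.31 and differed by 0.61 (SE 0.157, adjusted p = 0.388). Nqo1, a quinone reductase induced by the same receptor and by NRF2, differed by 0.24. The other targets of the receptor ran from -0.22 (Tiparp) to 0.14 (Fam107a), with the cytochromes Cyp1a1 at 0.04 and Cyp1b1 at -0.01. The medians were 0.01 over 32 NRF2 targets and glutathione transferases and 0.06 over 11 targets of the receptor. Ahr itself differed by -0.39 (SE 0.143, adjusted p = 0.531), from 0.06, 0.58 and 0.64 at 6 h to -0.01, 0.12 and 0.01 at 24 h. WT 6 h replicate 1 lay within the range of the 24 h arrays, and the difference within the higher number class was -0.02.

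Clock genes differed in both directions; the labels do not give the time of day at which skin was taken. Npas2, an activator of the clock, had 1.06, 0.64 and 1.46 at 6 h against -0.03, 0.64 and -0.19 at 24 h, a difference of -0.92 (SE 0.308, adjusted p = 0.515). Arntl (BMAL1), its relative on the activating side, lay lower by 0.44. Dbp, an output gene that the activators drive, had -1.33, -0.65 and -1.30 at 6 h against 0.02, -0.72 and 0.65 at 24 h, a difference of 1.08. In WT 24 h replicate 2 all 3 of these genes lay at or near the values of 6 h. Among 38 measured genes of TGF-beta, WNT and BMP signalling 20 had a difference above 0, and the median was 0.02. At an unadjusted p under 0.05, 2 of them lay higher and 4 lower. Of the signalling genes, Bmp2 had -0.02, 0.997 and 0.79 at 6 h against -0.02, -0.36 and -0.02 at 24 h. Its difference of -0.72 shrank to -0.11 within the higher number class and reached -1.02 without WT 6 h replicate 1, where it passed (adjusted p = 0.0463). Tgfb2, a growth-arresting ligand, differed by -0.30 with arrays apart. Axin2, a WNT target, differed by -0.32 in its more variable row and by 0.18 in the other.

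Markers of other cells in the sheets were read next; fewer cells of a type and less RNA per cell cannot be told apart in bulk RNA. Hair follicle and hair shaft genes lay higher in 33 of 34 measured members, with a median of 0.18 and 12 at an unadjusted p under 0.05. Their mean was -0.08, -0.07 and -0.01 at 6 h against 0.14, 0.71 and 0.06 at 24 h. WT 24 h replicate 2 thus stood far above every other WT array, while all 3 arrays of 24 h stayed above all of 6 h. The arrays of 0 h were at 0.09, -0.04 and 0.15, a range that held WT 24 h replicates 1 and 3. Without WT 24 h replicate 2 the median was 0.15 and 3 members had an unadjusted p under 0.05. S100a3, a calcium-binding protein of the hair cuticle, had -0.20, -0.17 and 0.00 at 6 h against 0.56, 2.22 and 0.30 at 24 h. Its difference of 1.14 (SE 0.375, adjusted p = 0.514) was 0.55 without that replicate. Krt27, an inner root sheath keratin, had -0.11, -0.01 and -0.17 against 0.48, 1.29 and -0.03. Melanocyte markers, which sit in the follicle, had a median of 0.10 (0.04 without WT 24 h replicate 2 and 0.20 without WT 24 h replicate 3), with Pmel at 0.57 and Kit at 0.35.

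Marker lists of leukocytes that live in the epidermis had medians below 0. Among 18 epidermal T cell genes 13 were below 0, with a median of -0.23, and 5 had an unadjusted p under 0.05 in this direction against 1 in the other. The median was -0.08 without WT 24 h replicate 3, whose list mean of 0.02 was the lowest of the 3 (0.27 and 0.22 in the others). It was -0.14 within the higher number class, and with the number class as a block it was -0.07 with 8 of 18 above 0. Trat1, which stabilises the T cell receptor complex, had 0.27, 0.89 and 0.71 at 6 h against 0.00, 0.29 and 0.00 at 24 h. Klrd1, a lectin receptor of cytotoxic lymphocytes, had 0.70, 0.09 and 0.25 against 0.00, -0.08 and -0.10. Of the genes of the receptor itself, Trgv5 differed by -0.41 and Cd3e by -0.31. Langerhans cell genes, which mark the dendritic cells of the epidermis, lay lower in 15 of 19 with a median of -0.15, but 1 of the 19 had an unadjusted p under 0.05. Leaving out WT 6 h replicate 2 gave a median of -0.25, and leaving out WT 6 h replicate 3 gave -0.09. Ptprc (CD45), carried by all leukocytes, had 0.03, 0.54 and 0.62 at 6 h against -0.27, -0.27 and -0.75 at 24 h, a difference of -0.83 (SE 0.196, adjusted p = 0.306). Cd207 (langerin) differed by -0.31 with overlapping arrays. Markers of infiltrating or deeper cells were near 0: the medians were 0.02 for neutrophils, 0.03 for monocytes and macrophages, 0.05 for dermal fibroblasts, 0.03 for endothelium, 0.00 for skeletal muscle, 0.01 for adipocytes and 0.01 for mast cells.

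The same step in KO gave a comparison with other arrays. From 6 h to 24 h in KO 292 rows passed (1.24%), 147 higher and 145 lower. Of the 147 higher ones 124 (84.4%) were above 0 in WT, with a WT median of 0.21 against 0.60 in KO, and of the 145 lower ones 141 (97.2%) were below 0 in WT, with medians of -0.21 and -0.57. Rows chosen for a large KO change are bound to look larger in KO. Over all rows the sign matched in 55.3%, and the changes correlated across rows with r = 0.40, a description over rows that are not independent. The WT and KO changes share no arrays, but both have low label numbers in replicates 2 and 3 of 6 h only. In the replication list the median was 0.38 in KO with 5 genes passing, among them Tk1 at 1.27 (adjusted p = 0.0025). Its value in WT was 0.82. In the mitotic list the KO median was 0.47 and 15 genes passed. Cenpa was at 0.62 in KO (adjusted p = 0.00155) and Melk at 0.89, against 0.29 and 0.46 in WT. In the unfolded protein list 3 genes passed lower in KO and 1 higher. Hsp90b1 was at -0.83 there (adjusted p = 0.0114) and at -0.56 in WT. Immediate early genes had a median of 0.15 in KO and -0.13 in WT, and hair follicle genes 0.03 and 0.18.

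The difference between the KO and the WT change was then tested itself. It called 0 rows (0.0%), with 1575 (6.7%) at an unadjusted p under 0.05 and a smallest adjusted p of 0.411, so no gene's WT change was shown to differ from that in KO. The smallest p belonged to Slc25a10, the mitochondrial dicarboxylate carrier, which differed by -0.05 in WT and by 0.74 in KO. Its WT arrays ran from -0.09 to 0.09 over both times. Card10, with the smallest p among genes lower in WT, was at -0.43 in WT and 0.06 in KO (adjusted p of the difference 0.428). Atg13, of the complex that starts autophagy, was at -0.21 in WT and 0.18 in KO. The zinc finger gene Zfp9 was at 0.31 and -0.33, and Tmem210 at 0.27 and -0.28. Without KO 6 h replicate 1 the test of the difference called 4 genes: Slc25a10, and, outside the naming rule and chosen after their values were seen, Mir3098, Tcaf2 and Vps11.

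**Figure D4:**
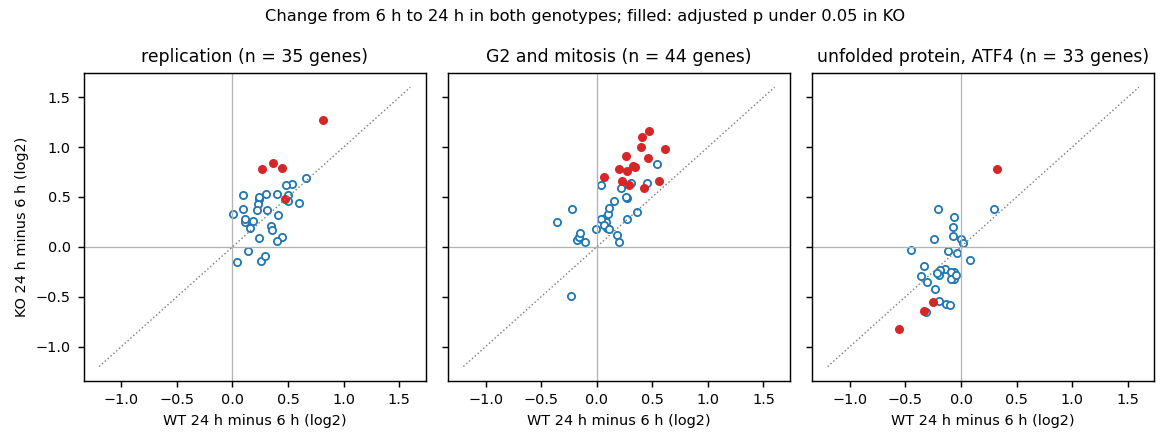
Change from 6 h to 24 h in wild type (horizontal axis, log2) and in knockout (vertical axis, log2) for the measured genes of 3 lists; points are genes, filled points passed in knockout at an adjusted p under 0.05, and the dotted line marks equal change. Of the 44 mitotic genes 15 passed in knockout (median 0.47, against 0.20 in wild type), and in no gene did the change itself pass the test of a difference between genotypes.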

How the data were processed

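RNA from epidermal sheets was labelled with biotin and read on Affymetrix arrays, per the labels' protocols. The authors deposited 1 table of 33793 rows by 18 arrays on a log scale taken here as log2, per the deposited values, which run from -6.40 to 4.30. A natural log cannot be told apart, and would make every difference larger by 1 factor. In 100% of the rows the median over the arrays is 0 (within 1e-06), so no level, signal over background or filter on dim rows can be had. Array medians lay between -0.0187 and 0.0107. How background and arrays were corrected is not stated in the sources used here.

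The platform's table paired 23521 rows with 1 gene symbol, and these were tested; 1814 rows had several symbols and 8458 had none. Groups and replicate numbers came from the titles. The labels speak of 3 littermates per genotype and time, so each array was taken as 1 animal, and p-values set a difference against the spread between such arrays. The number of arrays limits the precision, and 3 against 3 cannot give an exact permutation p below 0.1. Limma 3.58.1 in R 4.3.3 fitted a mean for each of 6 groups over the 18 arrays (12 residual and 2.76 prior degrees of freedom). Tests were 2-sided and adjusted by Benjamini-Hochberg over all 23521 rows. The script was tested on simulated data.

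The comparison and the 43 gene lists (1096 genes, 1008 measured) were chosen with earlier results of these data known. For a gene with several rows the lists use its most variable row (by SD, 18 arrays). Genes named are up to 15 of the smallest p in each direction, since none passed, up to 4 of the smallest p per list, Ahr, and up to 5 of the smallest p in each direction for the KO minus WT difference. Members named beyond these 4 per list, such as the MCM genes, Mki67, Top2a, Pola1, Gins3, Hspa5, Mmp9, Fn1, Krt14, Trp63, Flg, Lor, Krt1, Krt10, Cyp1a1, Cyp1b1, Tiparp, Trgv5, Cd3e, Cd207 and Serpinb2, were chosen after their values were seen.

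Alternatives were quantile normalisation of the deposited values, array medians set to 0, all rows, the more variable rows only, limma's trend, robust and weight options, fits on fewer groups, the label number class or the replicate number as a block, the higher number class alone, other thresholds and each array left out. Those for list medians other than the mean of a gene's rows were added after the data were seen.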

Additional observations from a re-analysis of the deposited data

How the results depend on the processing

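The count of 0 rows called between 24 h and 6 h held under the replicate block (0 called), the label number class as a block, the higher number class alone, trend, robust and weighted fits, fits on the 6 or 9 WT arrays, all rows, array medians at 0, a threshold of 0.1, a least change of 1 log2 and limma's test against a 1.2-fold change. It was 4 after quantile normalisation (Pclaf and Cenpm higher, Card10 and Asb13 lower, each adjusted p = 0.0414) and 5 among the more variable rows (Tk1, H2ac10 and Pclaf higher, Aadacl2fm1 and Zc3h12c lower, adjusted p 0.0348 to 0.0481). Leaving out each array gave 0 to 19 rows, with the 19 coming from the fit without WT 6 h replicate 1 alone (8 higher, 11 lower). They include Card10, Lama3, Tm7sf2, Bmp2, Aadacl2fm1 and Pmf1. For the KO minus WT difference the replicate block called 0 and leaving out each array gave 0 to 4, the 4 without KO 6 h replicate 1. Arrays with the same replicate number did not deviate together (correlations -0.08, 0.01 and -0.04), so the numbers were not taken as pairs.

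Single genes were read under the alternatives for 118 genes. These leave out some members named above, such as the MCM genes, Mki67 and Top2a, whose direction under the alternatives was not read. Of the 118, 12 were called under at least 1 of 23 alternatives, with adjusted p over the alternatives from 0.0348 to 1 for Pclaf. In every alternative run for them (22 for the 7 genes outside the more variable rows, otherwise 23), 114 kept their direction. Ereg turned to 0.0357, Krt6a to -0.153 and Marveld3 to 0.00648 both within the higher number class and without WT 6 h replicates 2 and 3. In these 2 fits the spread of the lone 6 h array is taken from the other groups. Serpinb2 turned to 0.0712 without WT 24 h replicate 2, and ran from -3.14 to 0.0712 over the arrays left out; 1 array at -6.40 makes the value. The causes of the other changes were not tested.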

Other observations

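Interferon response genes had a median of -0.05 over 36 members with 0 at an unadjusted p under 0.05. Hypoxia and glycolysis genes had a median of -0.01 over 25, with P4ha1, a collagen prolyl hydroxylase, at -0.41. Of 20 p53 target genes 5 were above 0, and the median was -0.10 (-0.04 without WT 24 h replicate 1), with Fas, a death receptor, at -0.44 and Bbc3 (PUMA), which starts cell death, at 0.29. YAP and serum response targets had a median of -0.08 over 26 (-0.01 within the higher label number class), with the actin crosslinker Flna at -0.39 and Acta2, smooth muscle actin, at 0.46. Quiescence genes had a median of -0.11 over 23, which was 0.09 within the higher label number class and -0.04 without WT 6 h replicate 3, with Bcl6, a transcriptional repressor, at -0.31 and the ubiquitin ligase gene Fbxo32 at -0.34. Epidermal transcription factors had a median of -0.02 over 37, with 3 higher and 5 lower at an unadjusted p under 0.05.

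Lipid genes of the sebaceous gland split. Elovl3, which lengthens fatty acids, differed by 1.11 and Cidea, a lipid droplet protein, by 0.43, while Scd3, a desaturase, differed by -0.83 and Awat2, which makes wax esters, by -0.55. The difference in Elovl3 was 0.16 within the higher label number class, since WT 6 h replicate 1 was at 0.42 and the other arrays of 6 h at -0.92 and -1.09. The medians were 0.03 over 31 lipid genes and -0.01 over 12 sebocyte markers, but the arrays of 24 h disagreed. The mean of the sebocyte markers was -0.30, 0.37 and 0.02 in them. Without WT 24 h replicate 1 the medians were 0.19 for the lipid genes and 0.16 for the sebocyte markers. Without WT 24 h replicate 2 they were -0.02 and -0.15.

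The small remaining marker lists lay near 0. The medians were 0.06 over 8 Merkel cell, 0.02 over 7 Schwann cell and 0.03 over 9 platelet and B cell genes, and the 1 measured blood gene differed by 0.03.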
